A study of Mus musculus with 12 samples.

Results

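The liver expression difference between the mice titled 6Y and the mice titled 6K was described from 4 of the 12 microarrays of a KK-Ay mouse series, 6Y-1 and 6Y-2 against 6K-1 and 6K-2, taken by their titles. KK-Ay mice (KK.Cg-Ay/J) carry the lethal yellow A-y allele of agouti on the KK background and develop type 2 diabetes (T2D), and the methods name KK mice as their controls. The series text lists 6Y as T2D and 6K as control, whereas the genotype label of the 6K arrays, like that of the 6Y arrays, reads T2D. The sources used here tie no strain to a single array and give no unit to the 6 in these titles, so the age of both groups is not known, and the labels name no agent for either. By the methods the RNA came from liver, by the sample labels from blood. Nothing states that 6Y-1 and 6Y-2, or 6K-1 and 6K-2, came from separate mice, so the p-values measure only the spread between arrays. The 42Y and 42WKK arrays, listed as T2D and control by the series text and both labelled as controls, served as a second pair of the same kind at 42 weeks, an age that only the 42WKK titles and the methods give, and the 16Y arrays and the arrays titled 1-3 and 1-5 entered the estimate of the spread.

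Agouti (a) encodes a secreted antagonist of melanocortin receptors that is normally made in the hair follicle. The A-y allele is a deletion on chromosome 2 that removes coding sequence of Raly, an RNA-binding protein gene, together with Eif2s2, which encodes the beta subunit of translation initiation factor eIF2, and joins the agouti coding exons to the promoter of Raly. Agouti RNA is then made in nearly every tissue, the liver included, and blockade of the melanocortin receptors gives the yellow coat, overeating and obesity of these mice. A-y is carried over a normal chromosome, since it is lethal when homozygous, so a carrier keeps a single working copy of Raly and of Eif2s2.

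The promoters of these genes are shown because A-y exchanges the promoter of agouti for that of Raly. They are RefSeq sequences of the build GRCm38.p6, 300 bases each, read 5′ to 3′ on the strand of the gene, with each CG dinucleotide in capitals. The Raly promoter lies at chr2:154790860-154791159 on the plus strand, the agouti promoter at chr2:155013320-155013619 on the plus strand, and the Eif2s2 promoter at chr2:154892857-154893156 on the minus strand.
Raly: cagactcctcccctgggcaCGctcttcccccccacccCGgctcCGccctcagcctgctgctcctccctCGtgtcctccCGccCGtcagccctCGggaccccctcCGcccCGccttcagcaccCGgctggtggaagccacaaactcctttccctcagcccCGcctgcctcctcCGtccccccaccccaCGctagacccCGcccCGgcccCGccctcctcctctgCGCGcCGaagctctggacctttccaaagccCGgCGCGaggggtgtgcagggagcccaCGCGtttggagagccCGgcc
agouti (a): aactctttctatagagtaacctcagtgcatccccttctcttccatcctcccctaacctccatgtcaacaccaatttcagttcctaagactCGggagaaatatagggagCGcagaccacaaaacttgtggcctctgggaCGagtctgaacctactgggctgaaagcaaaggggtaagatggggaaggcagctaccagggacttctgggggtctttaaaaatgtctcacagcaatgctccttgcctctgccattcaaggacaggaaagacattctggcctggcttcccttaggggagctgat
Eif2s2: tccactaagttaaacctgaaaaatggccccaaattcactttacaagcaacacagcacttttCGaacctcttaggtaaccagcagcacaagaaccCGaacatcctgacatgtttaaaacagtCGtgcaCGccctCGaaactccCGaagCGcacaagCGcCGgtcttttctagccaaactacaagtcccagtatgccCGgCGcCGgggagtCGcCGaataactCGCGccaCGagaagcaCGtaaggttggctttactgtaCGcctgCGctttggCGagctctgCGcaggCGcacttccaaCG
The Raly promoter held 25 CG dinucleotides and was 73.7% G or C, and the Eif2s2 promoter held 24 and was 53.3% G or C. The agouti promoter held 3 and was 50.3% G or C. Of 32851 promoters of this length, 18.4% had as many CG dinucleotides as Raly or more, and 76.7% as many as agouti or more.

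Agouti was the only transcript cluster of 35556, the unit in which the array reports a gene or part of it, that passed the test between 6Y and 6K. Its log2 signal was 7.06 in 6Y-1 and 6.78 in 6Y-2, against 5.29 in 6K-1 and 5.20 in 6K-2. Agouti was thus 3.19-fold higher in 6Y, a log2 fold change of 1.67 (SE 0.13, 95% interval 1.37 to 1.98, limma adjusted p = 0.0315). This 1 call is 0.00281% of the 35556 clusters, and it was lost when any 1 of the 4 arrays was left out, with log2 fold changes of 1.53 to 1.81 and limma adjusted p of 0.0886 to 0.394.

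The genes that A-y deletes had lower signals in both 6Y arrays, although no cluster of them passed the test over all clusters. The Raly cluster read 6.70 and 6.81 in 6Y, against 7.61 and 7.73 in 6K, a log2 fold change of -0.91 (SE 0.14, limma adjusted p = 0.522). The brighter Eif2s2 cluster read 7.67 and 7.51 in 6Y, against 8.45 and 8.53 in 6K, a log2 fold change of -0.90 (SE 0.10, limma adjusted p = 0.258). The dimmer Eif2s2 cluster read 6.24 and 6.00 in 6Y, against 6.72 and 6.83 in 6K, a log2 fold change of -0.65 (SE 0.11, limma adjusted p = 0.522). In all 3 clusters the arrays of the groups did not overlap, which also held for 35.8% of all genes in either direction. The fitted folds of 0.531, 0.536 and 0.635 have 95% intervals of 0.428 to 0.658, 0.456 to 0.630 and 0.537 to 0.751. The brighter Eif2s2 cluster passed when only the 11788 clusters with a mean log2 signal of at least 6 were tested (limma adjusted p = 0.018) or only the 21789 clusters with exactly 1 gene symbol (limma adjusted p = 0.041). Both Eif2s2 clusters were placed on chromosome 2 by their gene, not by the position of their probes. The number of the brighter cluster, 10578683, lies between those of the chromosome 8 genes Primpol (10578557) and Smad1 (10579860). That of the dimmer cluster, 10488806, lies between those of Pxmp4 (10488797) and Pigu (10488830), neighbours of agouti. Whether the brighter cluster was designed on a related copy of Eif2s2, or transcripts of such a copy reach either cluster, was not tested.

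These clusters also checked the labels. Over the 12 arrays, agouti lay at 6.78 to 7.06 in the 6 arrays with Y in the title and at 5.20 to 5.51 in the other 6. Raly lay at 6.59 to 6.81 in the Y arrays and at 7.21 to 7.73 in the others. The Eif2s2 clusters lay at 7.20 to 7.67 in the Y arrays and 8.15 to 8.88 in the others for the brighter, and at 5.68 to 6.24 in the Y arrays and 6.34 to 6.92 in the others for the dimmer. Each of the 4 clusters separated the Y arrays from the rest without overlap (exact two-sided permutation test, p = 0.00216, the smallest that 6 against 6 arrays can give, and 0.00216 after Benjamini-Hochberg adjustment over the 4 tests). That test takes the 12 arrays as separate samples, which the sources do not state, and over the 6 group means, 3 against 3, the same test gave 0.1 for each cluster, the smallest it can give. The 6K arrays therefore lay with the controls in all 4 clusters, against their T2D genotype label and with the series text, and the 42Y arrays lay with the other Y arrays, against their control label.

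**Figure D1:**
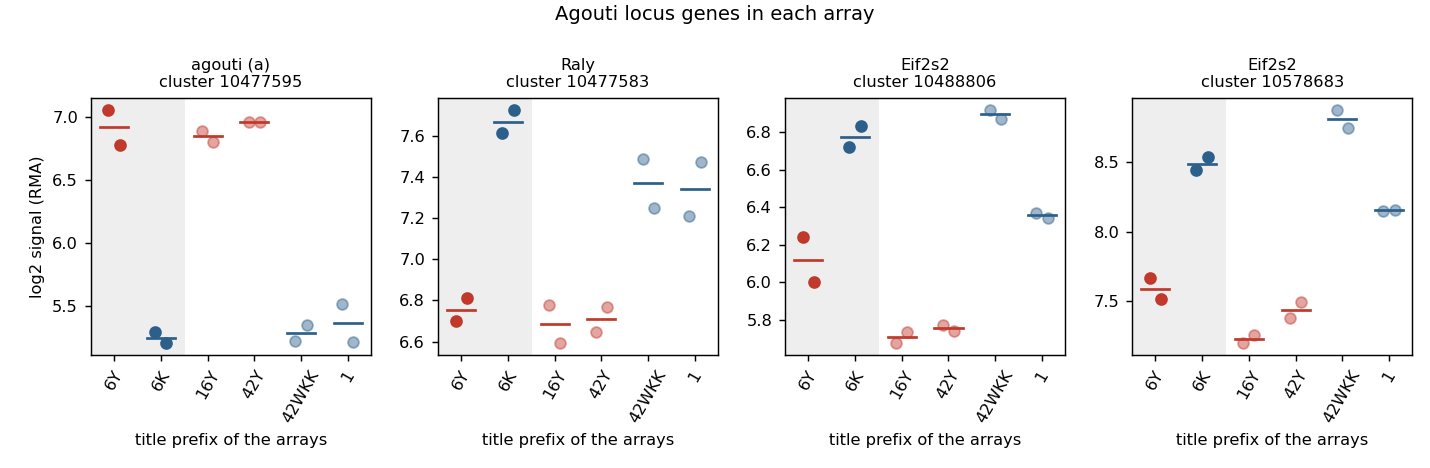
Log2 signal of the clusters of agouti, Raly and Eif2s2 in each of the 12 arrays, grouped by title prefix (points are arrays, lines the group means, red the prefixes with Y and blue the others, the 6Y and 6K arrays shaded). Agouti is higher in every Y array, at 6.78 to 7.06 against 5.20 to 5.51, and the other clusters are lower in every Y array.

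Genes around agouti had small differences. Of the 20 measured genes on each side of agouti on chromosome 2 in RefSeq order, 38 remained without the A-y genes, and none passed the test with limma or had an unadjusted p under 0.05. Their log2 fold changes ran from -0.23 to 0.44 with a median of -0.01.

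The 4 arrays were alike in depth of signal and in tissue. Correlations over all clusters were 0.9883 between the 6Y arrays, 0.9881 between the 6K arrays and 0.987 to 0.9888 across the groups, and the 4 arrays reached 0.98 to 0.9867 with the other 8. The median log2 signal over the hepatocyte markers, such as Alb for albumin, was 13.1 to 13.2 in each of the 4 arrays, while the T cell markers lay at 4.37 and 4.48 in 6Y and 4.60 and 4.32 in 6K, below the median over all clusters of 4.76 to 4.81. Liver markers were thus near the top of the scale in arrays labelled as blood.

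Across the whole table the 6Y and 6K arrays differed little. No cluster passed as lower in 6Y, and the share of clusters with an unadjusted p under 0.05 was 5.28%, which is 964 higher and 914 lower in 6Y. Over the 19938 genes with a cluster of their own, the median log2 fold change was 0.0038, and 26 genes had a log2 fold change beyond 1 in either direction. Of all these genes 50.9% had a higher mean in 6Y, the share beside which the counts of list members below stand. The 95% interval of the difference lay wholly within 1 log2 unit of 0 for 19438 genes (97.5%), with a median reach of 0.33 to either side of the estimate. A difference of 1 log2 unit or more was thus outside the interval for most genes, while smaller ones may escape 2 arrays a group. The same 2-array groups gave 659 called clusters between 42Y and 42WKK.

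After agouti, the clusters of 1 gene with the smallest p that were higher in 6Y were Primpol, Olfr784, Taf9b, Olfr676, Tesk2, Olfr65, Chac1, Hspa8 and Kcnt2, and none of them passed (limma adjusted p of 0.522 to 0.675). Primpol, a primase-polymerase that restarts stalled DNA replication, read 5.73 and 5.56 in 6Y, against 5.02 and 4.82 in 6K. Hspa8, the constitutive HSC70 chaperone, read 10.10 and 10.45 in 6Y, against 9.69 and 9.52 in 6K, a log2 fold change of 0.67. The olfactory receptor clusters were near the bottom of the scale, at 2.48 to 2.67 in 6Y and 1.87 to 2.06 in 6K. On the lower side, after the A-y genes, came Six4, Kirrel2, Trim36, Ubqln5, Ankrd35, Vmn2r14 and Lrrk2, none of which passed (limma adjusted p of 0.522 to 0.675). Kirrel2, a cell adhesion protein of the nephrin family, read 4.73 and 4.74 in 6Y, against 5.26 and 5.31 in 6K.

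**Figure D2:**
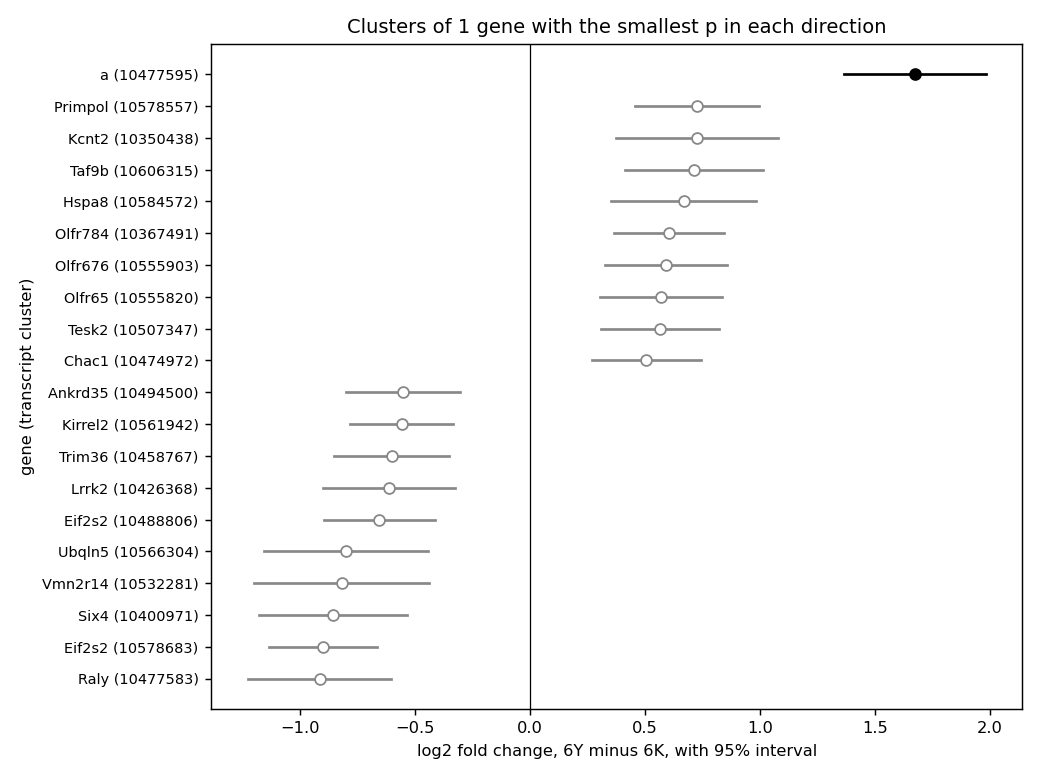
Log2 fold change (6Y minus 6K) with its 95% interval for the clusters of 1 gene with the smallest p in each direction, labelled by gene and cluster number. Agouti, at 1.67, is filled because it alone passed the test, and Raly and the pair of Eif2s2 clusters, at -0.91, -0.90 and -0.65, are among those with the smallest p on the lower side.

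Agouti acts on melanocortin receptors, and the other measured genes of that pathway had low signals or small differences. Of 11 measured members, agouti passed and no other did, with a median log2 fold change of -0.05 over the list. Mc4r, the receptor through which agouti drives overeating, read 3.80 and 4.20 in 6Y, against 4.15 and 4.20 in 6K. Mrap2, an accessory protein of melanocortin receptors, read 3.55 and 3.31 in 6Y, against 3.97 and 4.33 in 6K, a log2 fold change of -0.72 that did not pass (limma adjusted p = 0.779). Atrn, the attractin receptor needed for the action of agouti on pigment, read 9.07 and 9.05 in 6Y, against 8.93 and 8.85 in 6K (log2 fold change 0.17). Mgrn1, a ubiquitin ligase of the same pathway, read 7.98 and 7.94 in 6Y, against 8.06 and 8.0 in 6K.

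The other genes of a list built around eIF2 had small differences. It holds 14 measured genes of eIF2, its exchange factor eIF2B and its kinases, together with Eif1a, Eif2a and Eif5. The brighter Eif2s2 cluster had a log2 fold change of -0.90, the dimmer had -0.65, and the other genes ran from -0.12 to 0.30. Eif2s3x, the gamma subunit, was the only other eIF2 subunit measured in the list. It had a log2 fold change of 0.30 and read 9.11 and 9.20 in 6Y, against 8.98 and 8.72 in 6K. Phosphorylation of eIF2 triggers the integrated stress response and is only a part of the unfolded protein response. Among 24 genes of the 2 responses none passed, 11 had a higher mean in 6Y (18 without 6Y-1) and the median log2 fold change was -0.01. At unadjusted p 3 members were higher, beside 2.53% of all genes that were higher and 2.07% that were lower at that level. Asns, asparagine synthetase and an ATF4 target, read 8.38 and 8.74 in 6Y, against 7.02 and 6.93 in 6K, a log2 fold change of 1.59 (SE 0.43, limma adjusted p = 0.802). Chac1, an ATF4 target that degrades glutathione, read 6.98 and 6.76 in 6Y, against 6.41 and 6.32 in 6K, a log2 fold change of 0.51 (SE 0.10, limma adjusted p = 0.675). Atf4 itself read 6.63 and 7.11 in 6Y, against 6.81 and 6.98 in 6K.

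Every measured gene of cholesterol synthesis had a higher mean in 6Y, although none passed the test. The list holds enzymes from Hmgcs1 to Dhcr7 with their regulators, and 20 of its 24 genes were measured. The median log2 fold change was 0.40, beside 0.0038 over all genes, and 16 members did not overlap between the groups, all with 6Y above 6K, where 35.8% of all genes did not overlap in either direction. Sqle, squalene epoxidase, read 8.67 and 9.08 in 6Y, against 7.88 and 8.04 in 6K, a log2 fold change of 0.92 (SE 0.44, limma adjusted p = 0.921). Hmgcs1, which makes the substrate of HMG-CoA reductase, read 9.64 and 10.02 in 6Y, against 9.05 and 9.11 in 6K, a log2 fold change of 0.75 (SE 0.33, limma adjusted p = 0.921). Insig1, a sterol sensor that restrains SREBP and is itself its target, read 10.96 and 11.31 in 6Y, against 10.62 and 10.67 in 6K. Srebf2, the transcription factor over these genes, read 7.91 and 8.22 in 6Y, against 7.82 and 7.94 in 6K, so that its arrays overlapped. The members share their regulator and 4 arrays, and their number does not add replicates. The level of the list, its median over members, was 8.99 and 9.28 in 6Y, against 8.84 and 8.69 in 6K, with a range of 7.37 to 9.34 over the other 8 arrays, so the 4 arrays lay within the spread of the series. All 20 members kept a higher mean in 6Y when any 1 of the 4 arrays was left out.

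**Figure D3:**
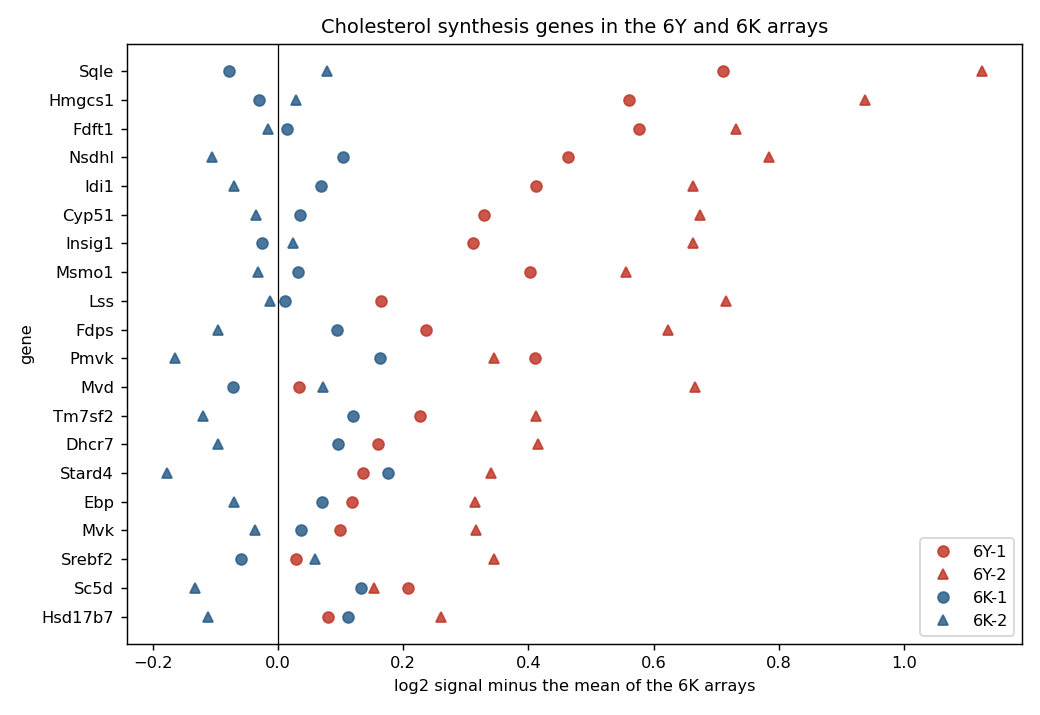
Log2 signal of the 20 measured cholesterol synthesis genes in the 6Y arrays (red) and the 6K arrays (blue), each gene given relative to the mean of its 6K arrays and ordered by its log2 fold change. Both 6Y arrays lie above both 6K arrays in 16 of the 20 genes, and 6Y-2 lies above 6Y-1 in most of them.

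The genes of fatty acid and triglyceride synthesis and of fatty acid oxidation were close between the groups outside a few members. Of 23 measured synthesis genes 18 had a higher mean in 6Y, with a median log2 fold change of 0.14 and none passing, and 10 of 23 did so without 6K-2. Fasn, the fatty acid synthase, read 9.59 and 9.71 in 6Y, against 9.75 and 9.18 in 6K. Lpin1, the phosphatidate phosphatase lipin 1, read 9.71 and 9.50 in 6Y, against 6.83 and 8.78 in 6K, where 6K-1 stood apart from 6K-2. Of 23 measured genes of oxidation and PPAR alpha targets 14 had a higher mean in 6Y, with a median of 0.04 and none passing. Cyp4a14, an omega-hydroxylase and PPAR alpha target, read 7.94 and 8.08 in 6Y, against 6.79 and 6.87 in 6K, a log2 fold change of 1.18 (SE 0.34, limma adjusted p = 0.817). Acot3, a peroxisomal acyl-CoA thioesterase, read 4.91 and 5.55 in 6Y, against 4.23 and 3.94 in 6K, a log2 fold change of 1.15 (SE 0.26, limma adjusted p = 0.727). Cpt1a, the gatekeeper of mitochondrial oxidation, read 9.92 and 9.70 in 6Y, against 9.98 and 9.89 in 6K.

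Insulin signalling genes gave no call. Of 20 measured members 12 had a higher mean in 6Y, and the median log2 fold change was 0.04. Insr, the insulin receptor, read 9.44 in both 6Y arrays, against 9.58 and 9.53 in 6K, a log2 fold change of -0.11 (95% interval -0.35 to 0.13, limma adjusted p = 0.951). Irs1 and Irs2, the adaptors below it, had log2 fold changes of -0.27 and -0.26, and Foxo3, a transcription factor that insulin signalling keeps out of the nucleus, read 8.0 and 8.20 in 6Y, against 7.35 and 7.67 in 6K (limma adjusted p = 0.771). The other genes that the study followed were close as well. Nt5c2, the cytosolic purine nucleotidase, read 7.22 and 7.07 in 6Y, against 7.06 and 6.98 in 6K (log2 fold change 0.12, 95% interval -0.14 to 0.39). Fut8, the alpha-1,6-fucosyltransferase, read 6.18 and 6.53 in 6Y, against 6.11 and 6.39 in 6K (0.10, 95% interval -0.24 to 0.44). Dnmt1, the maintenance DNA methyltransferase, read 6.51 and 6.5 in 6Y, against 6.58 and 6.55 in 6K (-0.06, 95% interval -0.29 to 0.17). None of these intervals reached 1 log2 unit. Glucose genes gave no call either, with 14 of 19 measured members higher in mean and a median of 0.10. The count was 10 of 19 without 6Y-1 and 11 of 19 without 6K-2. The 2 named members, Pfkfb3 and Ppp1r3b, had limma adjusted p of 0.949 and 0.922.

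Interferon-stimulated genes had a higher mean in 6Y in 23 of 25 measured members, beside 50.9% of all genes, with a median log2 fold change of 0.19 and none passing. Gbp7, an interferon-induced GTPase, read 7.36 and 7.58 in 6Y, against 6.81 and 6.70 in 6K, a log2 fold change of 0.72 (SE 0.16, limma adjusted p = 0.727). Ifit1, which binds foreign RNA, read 5.93 and 5.77 in 6Y, against 5.47 and 4.88 in 6K. The level of the list was 6.15 and 6.22 in 6Y and 5.72 and 5.74 in 6K, and both lay above the 5.11 to 5.66 of the other 8 arrays. Markers of Kupffer cells, the resident macrophages of the liver, had a higher mean in 6Y in 12 of 12 members (median 0.34), but this rested on 6Y-2, since 3 of 12 did so without it. The Kupffer cell level was 6.89 and 7.49 in 6Y, against 6.88 and 6.97 in 6K. Liver endothelial markers were higher in mean in 12 of 12 members (median 0.16), and in 6 of 12 without 6Y-2, with levels of 7.64 and 7.96 in 6Y and 7.50 and 7.80 in 6K. Neutrophil markers were higher in mean in 11 of 12 members (median 0.23), and in 5 of 12 without 6Y-2, at levels of 4.05 and 4.50 in 6Y and 3.84 and 3.92 in 6K. Recruited monocyte and macrophage markers were higher in mean in 6 of 10 members (median 0.03), and stellate cell markers in 6 of 12 (median 0.05). Whether the macrophage content of the samples takes part in the interferon values was not tested. In bulk liver fewer cells of a type and less RNA per cell cannot be told apart.

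**Figure D4:**
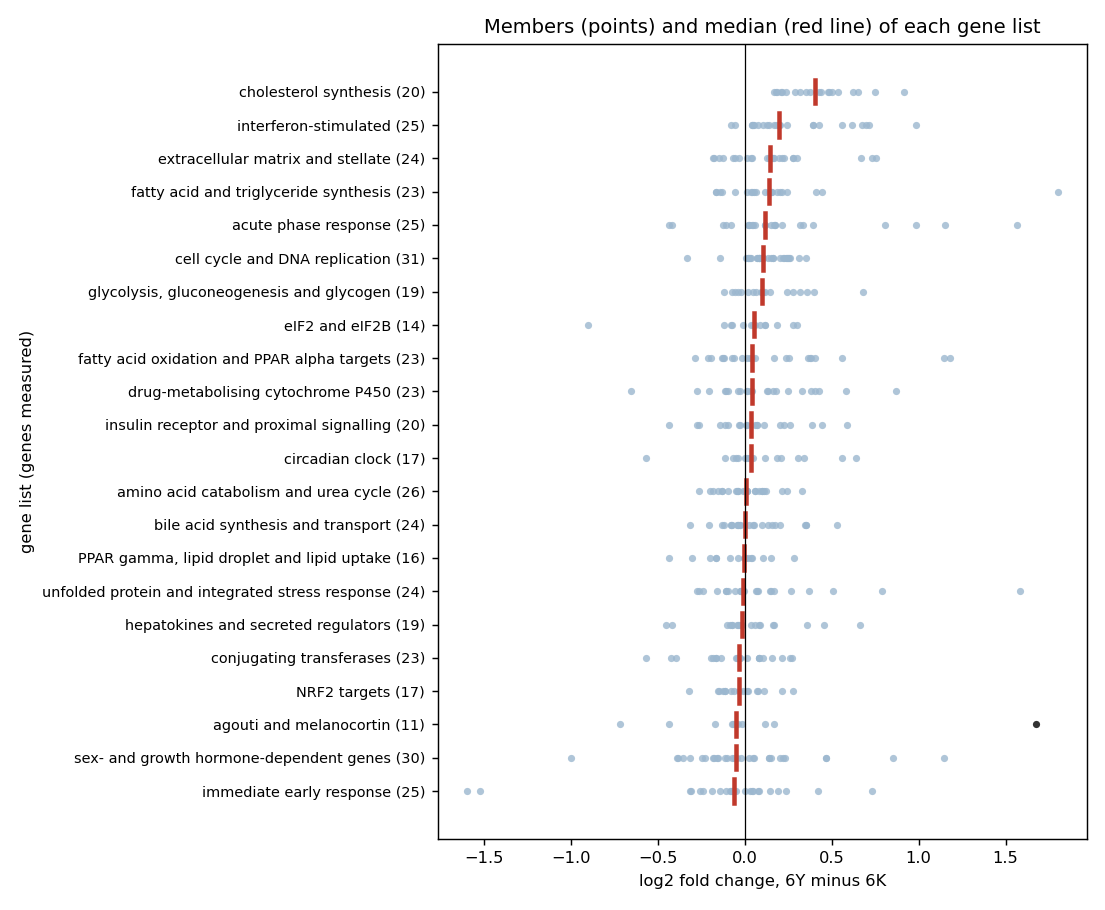
Log2 fold change (6Y minus 6K) of every measured member of the 22 pathway lists (points, with the number of genes in brackets) and the list median (red line), ordered by the median. Agouti, the black point at 1.67, is the only member that passed the test, and the cholesterol synthesis list has the highest median, 0.40.

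The remaining lists held no call. Cell cycle and DNA replication genes had a higher mean in 6Y in 29 of 31 members with a median of 0.11, which dropped to 18 of 31 without 6Y-1 and to 12 of 31 without 6K-2. Acute phase genes had a higher mean in 20 of 25 members with a median of 0.12, and in 9 of 25 without 6Y-2. Extracellular matrix genes were higher in mean in 17 of 24 members, and in 11 of 24 without 6Y-2, with Lum, a proteoglycan, at 4.46 and 5.05 in 6Y, against 3.85 and 4.19 in 6K. The medians of the bile acid, drug-metabolising P450, conjugating transferase, sex-dependent, circadian, immediate early, NRF2, amino acid, hepatokine and lipid droplet lists lay between -0.06 and 0.04.

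Some of the 26 genes with a log2 fold change beyond 1, named here after their values were seen, rested on a single array. Dpys, a pyrimidine catabolism enzyme, read 9.46 and 9.97 in 6Y, against 6.48 and 9.33 in 6K. Mt2, a metallothionein, read 11.64 and 12.74 in 6Y, against 9.30 and 11.96 in 6K. Myc read 6.04 and 5.83 in 6Y, against 8.88 and 6.04 in 6K. In these genes 6K-1 stood apart from the other 3 arrays. Cxcl13, a B cell chemokine, read 5.41 and 8.57 in 6Y, against 5.22 and 5.43 in 6K, and H2-Aa, a class II antigen-presenting chain, read 6.66 and 8.20 in 6Y, against 6.40 and 6.44 in 6K, so that 6Y-2 alone was high. Pairs of arrays within a group differed by more than 1 log2 unit in 69 genes in 6Y and 70 genes in 6K, against 18 to 147 genes in the other groups. Asns, Cyp4a14 and Acot3 differed by less than 1 log2 unit within each group and did not overlap between the groups. Others of the 26 did the same, such as Abcd2 and Id2, and 35.8% of all genes did not overlap in either direction.

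The pair at 42 weeks had a like difference at agouti and many more calls elsewhere. Agouti was higher in 42Y than in 42WKK by a log2 fold change of 1.68, against 1.67 between 6Y and 6K (test of the difference, limma adjusted p = 0.995). The Eif2s2 clusters had log2 fold changes of -1.37 and -1.14 at 42 weeks, against -0.90 and -0.65 here, and the difference did not pass (limma adjusted p = 0.229 and 0.235). Raly went the other way, at -0.66 at 42 weeks against -0.91 here, and its difference did not pass either (limma adjusted p = 0.621). The difference between the contrasts passed for 51 clusters, 0.143% of all, 19 with a higher and 32 with a lower value in 6Y minus 6K, and 21 of them carry 1 gene symbol. The 381 genes called at 42 weeks without the A-y genes had a median absolute log2 fold change of 0.87 there and 0.12 between 6Y and 6K. Of these 381, 185 had the same sign in both, a share near that over all genes, where 9429 of 19938 did. The 381 were chosen by their call at 42 weeks, and the medians over all genes were 0.15 at 42 weeks and 0.10 between 6Y and 6K. These contrasts share no array, and the correlation of their log2 fold changes was -0.05 across 19938 genes.

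Among the 10 genes with the smallest p for this difference, most had close values in 6Y and 6K. With any 1 of the 8 arrays of both pairs left out, the difference passed each time for Arntl, 7 times for n-R5s136 (a 5S ribosomal RNA), 6 times for Cyp2b10 and 1 or 2 times for the other 7 genes, whose limma adjusted p reached 0.126. Arntl, the clock activator BMAL1, read 7.54 and 7.60 in 6Y and 7.69 and 7.59 in 6K, while it read 5.62 and 5.67 in 42Y and 7.74 and 7.64 in 42WKK (difference of contrasts 1.97, SE 0.13, limma adjusted p = 0.00357). It was not alone among clock genes at 42 weeks. The log2 fold changes of 42Y minus 42WKK were 2.65 for Nr1d1, 2.36 for Dbp and -1.46 for Cry1, though -0.11 for Per2. Between 6Y and 6K they were -0.57, 0.01, 0.02 and 0.05. For these genes the difference of contrasts did not pass (limma adjusted p of 0.105 to 0.825). Whether the clock as a whole takes part in the Arntl difference was not tested. Cyp2b10, a drug-metabolising P450 induced through CAR, read 9.65 and 9.48 in 6Y and 9.46 and 9.34 in 6K, while it read 11.02 and 10.88 in 42Y and 7.69 and 8.20 in 42WKK (-2.84, SE 0.25, limma adjusted p = 0.0103). Elovl3, a fatty acid elongase, read 12.50 and 12.28 in 6Y and 12.47 and 12.44 in 6K, while it read 10.98 and 10.94 in 42Y and 12.44 and 12.33 in 42WKK (1.36, SE 0.16, limma adjusted p = 0.0291). Smad1, a transducer of BMP signals, read 6.41 and 6.48 in 6Y and 6.38 and 6.51 in 6K, while it read 7.38 and 7.42 in 42Y and 6.15 and 6.18 in 42WKK (-1.24, SE 0.15, limma adjusted p = 0.0291). Ube2u, a ubiquitin-conjugating enzyme, was the exception, at 5.98 and 5.77 in 6Y and 5.30 and 5.33 in 6K, with 4.58 and 4.60 in 42Y and 6.07 and 6.18 in 42WKK (2.09, SE 0.24, limma adjusted p = 0.0273).

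**Figure D5:**
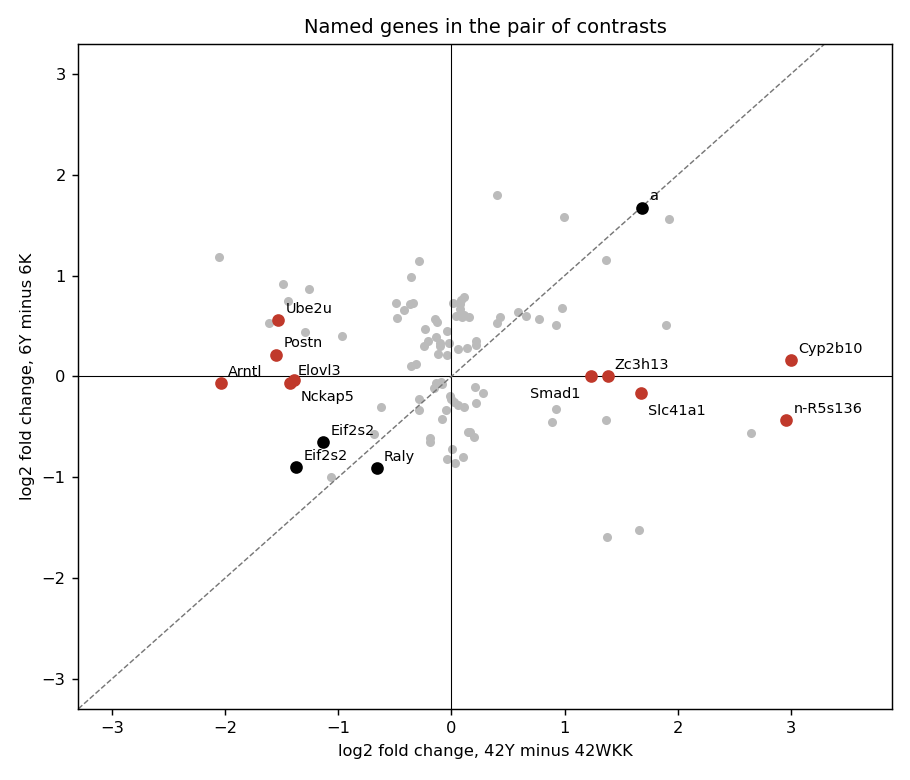
Log2 fold change of the named genes between 6Y and 6K (y axis) against that between 42Y and 42WKK (x axis), with the A-y genes in black, the 10 genes with the smallest p for the difference between the contrasts in red, other named genes in grey and the line of equality dashed. Agouti lies on the line at 1.67 and 1.68, while 9 of the 10 red genes lie within 0.44 of 0 on the y axis.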

How the data were processed

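RNA of the 12 arrays, from liver by the methods, was summarised by the authors with Affymetrix Expression Console and the RMA-sketch algorithm of their methods, and they deposited one log2 value per transcript cluster. The methods name an exon array, while the annotation is that of a gene array, and its build is not stated in what was read here. Groups were taken from the titles. Group means were fitted over all 12 arrays, 2 in each of 6 groups, with limma 3.58.1 in R 4.3.3 (lmFit, eBayes), with p adjusted after Benjamini-Hochberg over 35556 clusters and called under 0.05. A gene is its brightest cluster with exactly 1 symbol, updated through the RefSeq table of GRCm38.p6 (21698 of 21789 matched). The number of arrays limits the precision. The fit was also run on simulated data with noise drawn independently for each cluster. Such data hold no effect shared by the clusters of an array, so nothing is drawn from that run here. Members and gene lists were chosen with earlier results of these data known, so lists are described by counts and medians only. A rule named the A-y genes, those the study followed and the 10 smallest p in each direction. It also named up to 2 members per list by size and the 10 smallest p of the difference from 42 weeks. The text does not keep to this rule. It also gives genes outside the rule, such as Insig1, Srebf2, Fasn, Cpt1a and Ifit1. Some genes of the rule are left out, such as Gadd45g (6Y minus 6K, log2 fold change -1.59) and Cxcl9 (0.98). Same-numbered arrays did not deviate together (correlations -0.04 to 0.05), so they were not paired.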

Additional observations from a re-analysis of the deposited data

Results flagged for a closer look

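The difference between the 6Y minus 6K and the 42Y minus 42WKK contrasts passed the limma test in 51 clusters. Its value was 1.97 for Arntl, -3.40 for n-R5s136 (a 5S ribosomal RNA), -2.84 for Cyp2b10, 1.36 for Nckap5, -1.38 for Zc3h13, 2.09 for Ube2u, 1.36 for Elovl3, 1.77 for Postn (an extracellular matrix protein), -1.24 for Smad1 and -1.85 for Slc41a1 (a magnesium transporter), each on the log2 scale and with a limma adjusted p of 0.00357 to 0.0291. Among the alternatives the call held in 14 of 14 for Arntl, in 13 of 14 for n-R5s136 and in 11 of 14 for Cyp2b10, and it was lost in 7 or 8 of the 13 or 14 for each of the other 7 genes.

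The level of some gene lists lay in opposite directions in the pair of contrasts, with no overlap of arrays in either, and these differences were not tested. The median log2 fold change between 6Y and 6K was 0.40 for cholesterol synthesis, against -0.97 between 42Y and 42WKK. It was 0.10 for glycolysis, gluconeogenesis and glycogen, against -0.14 at 42 weeks, and without 6Y-1 only 10 of 19 members were higher in 6Y. For the immediate early response it was -0.062, against 0.75 at 42 weeks, and for erythroid markers -0.052, against 0.13 at 42 weeks.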

How the results depend on the processing

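The log2 fold change of agouti kept its direction in every alternative. It did not pass with quantile normalization (1.63, limma adjusted p = 0.0732), in the 4 arrays alone (1.67, 0.925) or in the 8 arrays of 6Y, 6K, 42Y and 42WKK (1.67, 0.229). Nor did it pass with a 2-group ANOVA of the 4 arrays after Benjamini-Hochberg (1.67, 0.943), and each of these settings called 0 clusters. It did pass with median centring, a variance trend, clusters with a mean log2 of at least 6 and clusters with 1 symbol, and the last 2 of these called 2 clusters, agouti and the brighter Eif2s2 (-0.90). The replicate block over the 8 arrays numbered 1 and 2 called 0 clusters (agouti 1.67, adjusted p = 0.565), as did these arrays without the block (0 clusters, 1.67, 0.22), and the numbers did not pair the samples. At unadjusted p the ANOVA passed 1802 of 35556 clusters, close to the share that a level of 0.05 passes without any difference. Raly (-0.91) and both Eif2s2 clusters (-0.90 and -0.65) were among the 1802. Leaving out 1 array of the 4 called 0 to 1 clusters, the 1 being an unnamed cluster, with agouti at 1.53 to 1.81.

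The 51 clusters that differed from the contrast at 42 weeks became 622 among clusters with a mean log2 of at least 6, 202 with a variance trend, 208 among clusters with 1 symbol and 10 in the 8 arrays, and 3 to 110 with 1 array left out (11 without 6Y-1, 30 without 6Y-2, 6 without 6K-1, 3 without 6K-2, 23 without 42Y-1, 110 without 42Y-2, 6 without 42WKKA and 24 without 42WKKB). The call for Arntl held in each of these alternatives. That for n-R5s136 was lost without 6K-2 (limma adjusted p = 0.0588), that for Cyp2b10 in the 8 arrays and without 6K-1 or 6K-2 (0.055 to 0.0621), and those for Nckap5, Zc3h13, Ube2u, Elovl3, Postn, Smad1 and Slc41a1 with most arrays left out (up to 0.126) and, except for Ube2u, in the 8 arrays (0.0663 to 0.101). The cause was not tested.

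Without 1 array, the members with a higher mean were 12 to 30 for cell cycle, 9 to 24 for acute phase, 3 to 12 for Kupffer cell and 6 to 12 for liver endothelial markers. Among clusters with a mean log2 of at least 6, only the brighter members of a list remain to be counted. There 9 interferon-stimulated and 4 cell cycle members had a higher mean. These counts are not out of the 25 and 31 members of the full lists, so they show no loss of direction.

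Some 6Y minus 6K values, none past the test, changed sign, the highest of them at 0.68 for Pfkfb3, 0.64 for Per1 and 0.54 for Ngp with all arrays. Quantile normalization gave -0.0032 for Zc3h13 and -0.00020 for Smad1. With 1 array left out, the log2 fold change ran from -0.037 to 0.46 for Col1a1, from -0.00053 to 0.60 for Col3a1, from -0.17 to 0.046 for Elovl3, from -0.069 to 0.27 for Fut8, from -0.0025 to 0.67 for Krt19, from -0.88 to 0.011 for Lpl, from -0.099 to 0.036 for Nckap5, from -0.014 to 1.09 for Ngp, from -0.0039 to 1.28 for Per1, from -0.18 to 1.54 for Pfkfb3, from -0.40 to 0.062 for Slc41a1, from -0.064 to 0.064 for Smad1 and from -0.057 to 0.067 for Zc3h13.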
